A study of Homo sapiens with 4 samples.

Results

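Antisense RNAs named after a coding gene were examined in VCaP cells after transfection with an siRNA against ZBTB7A. The members are the genes whose GENCODE 29 symbol ends in -AS1, -AS2 or -AS3 and whose reads on the gene's own strand summed to at least 100 over the 4 count tables. Of 1206 such symbols in the tables, 570 had at least 1 read, 636 had none and 88 reached that sum, among 60308 gene rows in all. The members were thus chosen by their summed reads, which are given as a description and not tested. Just inside the threshold were PAXBP1-AS1 with 100 reads and ASB16-AS1 with 101, and just outside were STARD7-AS1 with 96 and RUNDC3A-AS1 with 95. A coding gene of the name before "-AS" was found for 87 of the 88. There were 86 such coding genes, because PAXIP1-AS1 and PAXIP1-AS2 share PAXIP1, and none was found for RPARP-AS1.

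VCaP is a human prostate cancer line with a TMPRSS2-ERG fusion, and the study looked for genes regulated by ZBTB7A, a transcription factor of the zinc finger kind that represses many of its targets. All cells grew in DMEM with 10% FBS and were transfected with a non-targeting siRNA (siNTC) or with one against ZBTB7A (siZBTB7A). The labels give neither the time after transfection nor the siRNA dose. Each group has 2 count tables, R1 and R2, from stranded total RNA libraries, and nothing in the labels says that they came from separate cultures.

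Antisense RNAs are transcribed from the strand opposite to a coding gene. Some start at the coding gene's own promoter and run the other way (head to head, or divergent), and others start inside or beyond the gene and cross its exons, so that part of the RNA can pair with the mRNA. Many are short-lived and scarce in cells, while some are stable, spliced RNAs or hosts of small nucleolar RNAs (snoRNAs), which guide the modification of ribosomal RNA. A stranded library is needed to count them, since both RNAs can come from the same bases.

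The tables held between 11381794 and 12048199 reads, of which 5556061 to 5927656 were counted in genes on the kit's main strand. Chi-square per degree of freedom between the 2 tables of a group was 0.993 in siNTC (p = 0.722) and 0.995 in siZBTB7A (p = 0.659) over all genes with 20 or more reads, and 3.50 to 3.64 between tables of different groups. The R1 and R2 tables of a group thus agree within sampling noise and were counted as 1 library, so every test below compares 2 libraries and not the 2 conditions, with no replicate check. Over the 88 antisense RNAs alone the same measure was 1.22 in siNTC (chi-square p = 0.0812), 0.998 in siZBTB7A (p = 0.485) and 1.27 to 1.80 between groups. ZBTB7A itself had 90 and 115 reads in siNTC against 70 and 74 in siZBTB7A. The groups did not overlap, the fold was 0.743 (95% interval 0.597 to 0.925) and edgeR's quasi-likelihood test with Benjamini-Hochberg adjustment gave an adjusted p of 0.0969, so the targeted gene itself did not pass the threshold of 0.05. The luminal prostate genes KLK3, KLK2, HOXB13, TMPRSS2, SLC45A3, FOLH1 and ERG each had at least 1187 summed reads. Among the defining markers of other cell types, KRT5, CD3E and COL1A2 were at 0, PTPRC and TP63 had 1 read each, VWF 13, COL1A1 18, DCN 9, KRT14 35 and LUM 322.

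Sequences show how the antisense RNAs relate to their coding genes. In GENCODE 29, exons of 63 of the 87 pairs overlap on opposite strands, by a median of 470 bases. In 58 of the 63, a GENCODE 29 transcript of the antisense RNA holds an exact complement of at least 25 bases to a coding transcript, with a median longest stretch of 317 bases and a maximum of 2826. The middle 30 bases of that stretch are shown for 4 pairs to which the results return. Each antisense line is the reverse complement of the mRNA line under it. LGALS8-AS1 and THUMPD3-AS1 passed the test between the libraries. NOP14-AS1 did not pass and was picked for the fold of its read ratio to NOP14. TMPO-AS1 has most of the reads over its exons on the coding strand. The full stretch is 464 bases for LGALS8-AS1, 663 for THUMPD3-AS1, 210 for NOP14-AS1 and 389 for TMPO-AS1.
LGALS8-AS1: gttttggacagggacccgccgctgatcgcc
LGALS8 mRNA: ggcgatcagcggcgggtccctgtccaaaac
THUMPD3-AS1: tatttttgcagtacctttgataattcctag
THUMPD3 mRNA: ctaggaattatcaaaggtactgcaaaaata
NOP14-AS1: tggccagaatccccagtccccatgaggctt
NOP14 mRNA: aagcctcatggggactggggattctggcca
TMPO-AS1: gcggacacaaagccaagccagacccggaca
TMPO mRNA: tgtccgggtctggcttggctttgtgtccgc

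Promoter windows of 300 bases (250 before the start and 50 after) were found in RefSeq (GRCh38.p14) for 72 of the 88, in 97 windows, since some have several starts. Their median GC content was 64.7% against 58.7% over all 35116 RefSeq windows, and the median number of CpG pairs was 25 against 14. The members were chosen by their reads, while the RefSeq windows were not limited to genes with reads here. The backgrounds are thus unlike, also for the motifs below, and whether the differences belong to antisense RNAs was not tested. Motifs were searched on both strands. A GC box (GGGCGG) was found in 55.7% of the windows and in 45.0% of all RefSeq windows. A CCAAT box (CCAAT) was found in 28.9% against 34.6%, and TATAAA in 8.25% against 11.5%. The letters CCCTTCCCC, a site that ZBTB7A is known to bind at the fetal globin promoters, were in the windows of TMPO-AS1 and ZNF674-AS1 (2.06% of the windows, against 2.73% of all). These are matches of letters and not sites, and the windows without them say nothing about the factor. The windows of LRRC75A-AS1 and THUMPD3-AS1, the most abundant antisense RNAs that passed the test and whose windows touch no coding exon, are shown with CCAAT boxes and GC boxes in capitals, on whichever strand they were found. LRRC75A-AS1, which RefSeq lists as SNHG29, lies on the plus strand at chr17:16438737-16439036 and holds 2 CCAAT boxes and 0 GC boxes. THUMPD3-AS1 lies on the minus strand at chr3:9396574-9396873 and holds 1 CCAAT box and 2 GC boxes.
LRRC75A-AS1: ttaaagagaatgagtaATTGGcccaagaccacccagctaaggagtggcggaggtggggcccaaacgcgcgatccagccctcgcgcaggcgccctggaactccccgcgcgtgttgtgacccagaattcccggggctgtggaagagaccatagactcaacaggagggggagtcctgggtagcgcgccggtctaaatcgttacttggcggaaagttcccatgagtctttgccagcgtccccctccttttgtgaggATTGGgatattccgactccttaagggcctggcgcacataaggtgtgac
THUMPD3-AS1: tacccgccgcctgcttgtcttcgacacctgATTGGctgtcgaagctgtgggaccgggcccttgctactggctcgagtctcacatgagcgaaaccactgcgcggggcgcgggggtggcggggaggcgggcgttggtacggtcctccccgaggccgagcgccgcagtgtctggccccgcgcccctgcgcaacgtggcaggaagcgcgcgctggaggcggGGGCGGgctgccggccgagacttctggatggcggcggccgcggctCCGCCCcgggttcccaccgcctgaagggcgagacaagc

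The strand of the reads was checked first, because a coding read placed on the wrong strand would be counted as antisense. Over the exons of the antisense RNAs, 72 of the 88 had more reads on their own strand and 16 had more on the opposite strand. All 16 overlap exons of the coding gene in their name. The median share of reads on the antisense strand was 93.4%, and 28 of the 88 had at most 5 reads on the other strand. How often a read was placed on the wrong strand was measured in 1615 well-counted coding genes (1000 or more reads) with no annotated gene opposite, where the wrong-strand reads were 0.429% of all, with a 95th percentile of 1.65% per gene. At that 95th percentile, wrong-strand reads of the coding gene could make up 20.7% of the reads of TMPO-AS1, which had 191 antisense reads beside 2361 on the strand of TMPO, a gene for a protein of the nuclear lamina. At the pooled share they could make up 5.33%. The next highest figures at the 95th percentile were 7.71% for FAM198B-AS1 and 5.82% for ATP6V0E2-AS1, so the other 87 stayed under 10% by this measure.

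**Figure D1:**
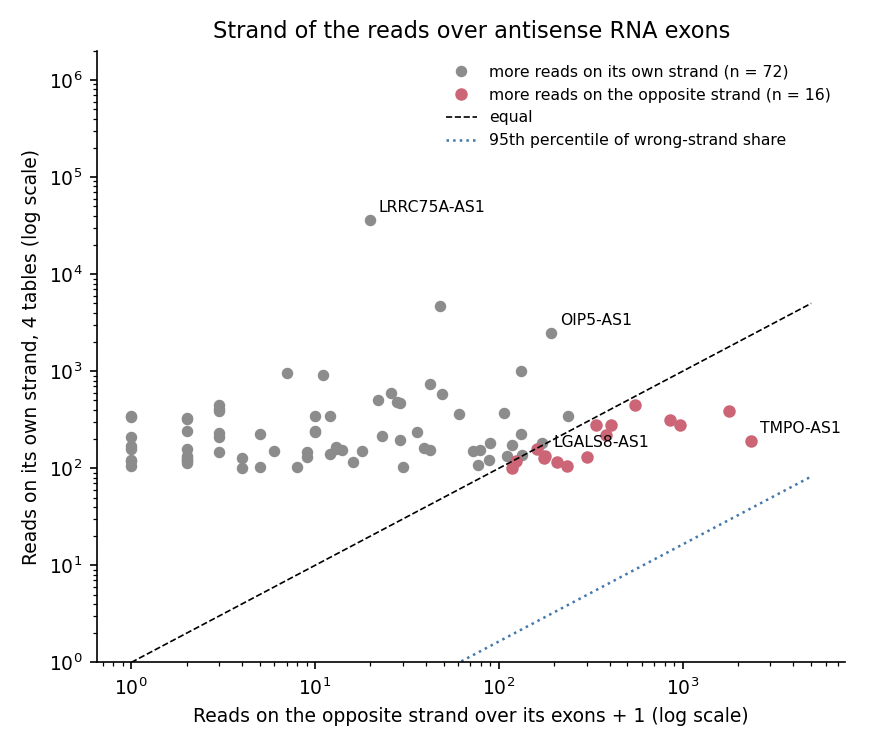
Reads over the exons of each of the 88 antisense RNAs, summed over the 4 tables, on their own strand (vertical, log scale) against the opposite strand plus 1 (horizontal, log scale). The dashed line marks equal numbers and the dotted line the 95th percentile of the wrong-strand share (1.65%). All points lie above the dotted line, 16 lie below the dashed line, and TMPO-AS1 lies nearest the dotted line.

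Most members were scarce. The median sum over the 4 tables was 182.5 reads, 47 of the 88 were below 200 reads and 85 were below 1000. Together the 88 held 0.283% of gene reads in siNTC and 0.280% in siZBTB7A. GENCODE 29 classes 57 of them as antisense, 16 as processed transcript, 11 as lincRNA, 3 as transcribed pseudogenes and 1, NCBP2-AS2, as protein coding. By position, all 87 pairs lie on opposite strands, and 36 were head to head with the named coding gene (5′ ends at most 2000 bases apart on opposite strands). A further 19 began within 2000 bases of the 5′ end of another coding gene on the opposite strand, and 33 had no such coding start near them. FGD5-AS1, for example, overlaps FGD5 far from the FGD5 start and begins 840 bases from NR2C2, a nuclear receptor gene.

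LRRC75A-AS1 stood far above the rest, with 36008 of the 64738 reads of all members, the other 87 holding 44.4%. It is the host gene of the snoRNAs SNORD49A, SNORD49B and SNORD65. Its level was 1518 and 1539 CPM (read counts scaled to the TMM-adjusted gene reads of each table) in siNTC and 1602 and 1614 in siZBTB7A. FGD5-AS1 followed with 4688 reads, at 212 and 210 CPM in siNTC and 192 and 202 in siZBTB7A. OIP5-AS1, a long conserved RNA with a binding site for miR-7, had 2467 reads, at 110 and 111 CPM in siNTC and 104 and 103 in siZBTB7A. The tables of the groups did not overlap for any of these 3, which was also so for 46.9% of all genes tested. LRRC75A-AS1 was higher in siZBTB7A, and FGD5-AS1 and OIP5-AS1 were lower. LRRC75A-AS1 alone of the 3 passed the test. The fold was 0.937 (0.884 to 0.992, edgeR adjusted p = 0.194) for FGD5-AS1 and 0.938 (0.866 to 1.02, edgeR adjusted p = 0.415) for OIP5-AS1. The next 7 by reads were THUMPD3-AS1 (997), TP73-AS1 (955), EPB41L4A-AS1 (917), GABPB1-AS1 (747), RPARP-AS1 (590), PSMA3-AS1 (589) and THAP9-AS1 (501). EPB41L4A-AS1 also holds a snoRNA, SNORA13. Apart from THUMPD3-AS1, these 7 had folds from 0.863 (THAP9-AS1) to 1.02 (EPB41L4A-AS1), and none passed the test.

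**Figure D2:**
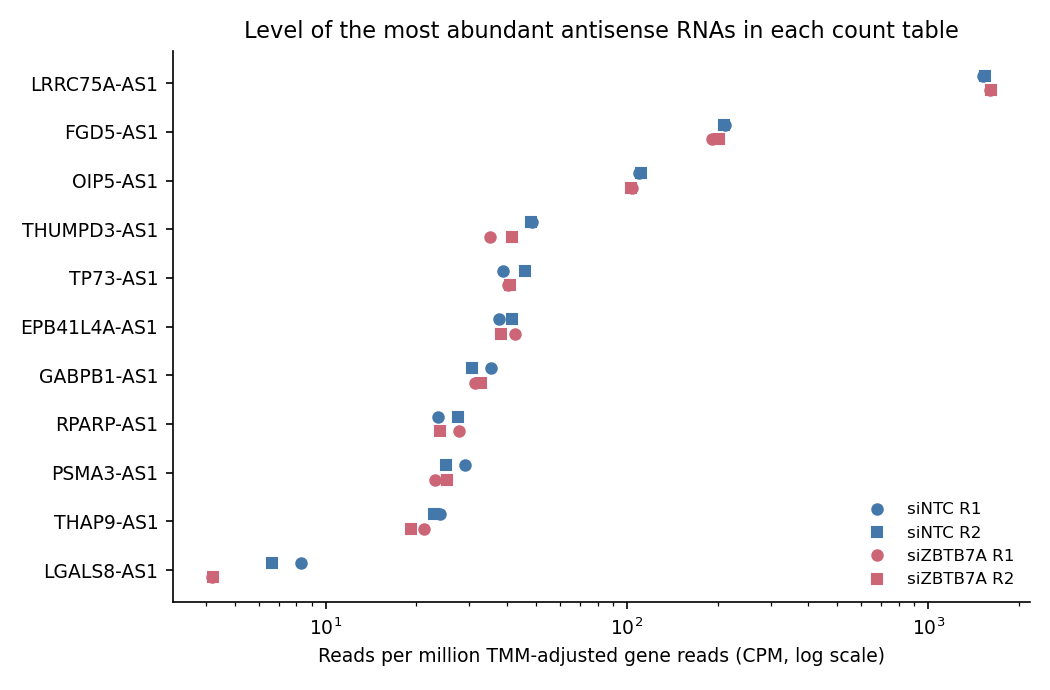
Level of the 10 antisense RNAs with most reads and of LGALS8-AS1 in each of the 4 tables, in CPM on a log scale, siNTC in blue and siZBTB7A in red, circles for R1 and squares for R2. LRRC75A-AS1 sits near 1500 to 1600 CPM, and the groups are apart for THUMPD3-AS1 (48.4 and 48.0 against 35.2 and 41.4) and LGALS8-AS1 (8.26 and 6.66 against 4.19 and 4.23).

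Levels were compared with the coding gene per kilobase of the longest GENCODE 29 transcript, in siNTC. The antisense RNA was above its coding gene in 28 of the 82 pairs with reads for the coding gene in both groups, and the median ratio of the level per kilobase was 0.489 (quartiles 0.204 and 1.77). It was above in 8 of 36 head to head pairs, with a median ratio of 0.397, and in 20 of 46 pairs whose gene bodies overlap in another way, with a median of 0.688. The level of an antisense RNA and that of its coding gene showed a Pearson r of -0.07 and a Spearman rho of 0.01 on the log scale over 84 pairs. Within the 36 head to head pairs r and rho were both -0.28, and within the 48 other pairs they were 0.01 and 0.17. This is a description of 1 library, in which all pairs share the same depth, and it carries no test.

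The 5 highest ratios belonged to coding genes with few reads. TTN-AS1 (4.07 CPM per kilobase) was 751 times the level of TTN, the gene of the muscle protein titin, which had 3, 4, 1 and 0 reads. LRRC75A-AS1, at 920 CPM per kilobase, was 686 times the level of LRRC75A, at 1.34. Wrong-strand reads in LRRC75A were not estimated. NUTM2A-AS1 was 113 times NUTM2A, which had 1, 0, 1 and 1 reads. EPB41L4A-AS1 was 37.1 times EPB41L4A, and ST8SIA6-AS1 was 17.9 times ST8SIA6, a sialyltransferase gene. FGD5 had 1 read in all against 4688 for FGD5-AS1, and CD27 and NUTM2B had 0 beside 344 and 133 reads of their antisense RNAs. The 5 lowest ratios were those of SGMS1-AS1 (0.0149), TMPO-AS1 (0.0263), TMEM147-AS1 (0.0265), RNF139-AS1 (0.0280) and PAXBP1-AS1 (0.0362). Their coding genes are all well expressed, from 21.4 CPM per kilobase for RNF139 to 99.8 for TMPO. The ratios depend on the annotated lengths. SGMS1-AS1 has an annotated transcript of 12400 bases, against a median longest transcript of 2465 over the members. Which transcript is expressed was not tested.

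**Figure D3:**
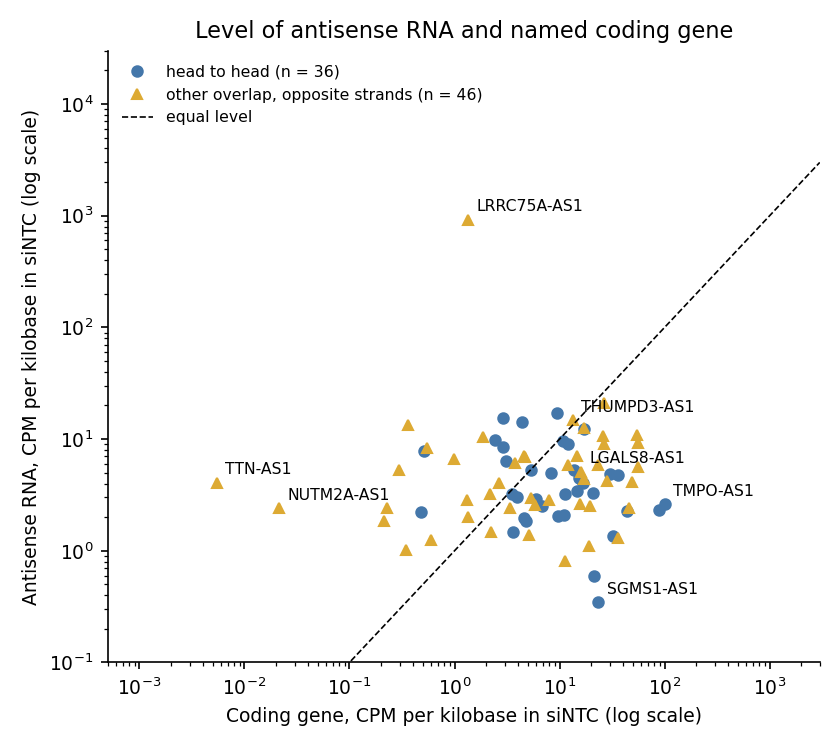
Level of each antisense RNA (vertical) against the coding gene in its name (horizontal) in siNTC, in CPM per kilobase of longest transcript, both on log scales, for the 36 head to head pairs (blue circles) and 46 other overlapping pairs (yellow triangles). The dashed line marks equal levels; 28 of the 82 points lie above it, TTN-AS1 and LRRC75A-AS1 farthest, and TMPO-AS1 and SGMS1-AS1 are among the lowest beneath it.

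Between the libraries, 3 of the 88 antisense RNAs passed the test (edgeR adjusted p under 0.05 over all 12848 genes tested), 1 higher and 2 lower in siZBTB7A. The background over all genes was 4.97% called, 2.25% higher and 2.72% lower, and over the genes with at least 100 and under 1000 reads, where 85 of the antisense RNAs lie, it was 2.36%. The 3 calls are 3.41% of the members, near these shares. Of the 85 antisense RNAs in that read range 2 were called (2.35%), both lower. The median log2 fold of the members was -0.04 (quartiles -0.19 and 0.14), against 0.0008 for all genes tested, with 39 folds above 1 and 49 below. The tables of the groups did not overlap for 39 members, where the background is 46.9%. The interval of the fold (counting error only, as for every interval here) left out 1 for 13 members, where the background is 17.1%. In bulk RNA, fewer cells of a kind and less RNA per cell cannot be told apart.

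LRRC75A-AS1 (ENSG00000175061, chromosome 17) was higher in siZBTB7A. Its reads were 8819 and 9241 in siNTC and 8793 and 9155 in siZBTB7A, from libraries of different depth, and its CPM values given above did not overlap. The fold was 1.05 (1.03 to 1.07; edgeR log2 fold 0.07, adjusted p = 0.000145), the smallest change among the 3. Its log2 fold ran from 0.060 to 0.083 when 1 table was left out. Since R1 and R2 count as 1 library, leaving out a table, here and below, lowers depth and is no replicate check. LRRC75A-AS1 did not pass with a correction for transcript GC content and length (edgeR adjusted p = 0.0868) or by DESeq2 (adjusted p = 0.0532). LRRC75A, on the opposite strand, had 26 and 24 reads in siNTC and 37 and 33 in siZBTB7A. Its fold was 1.48 (1.02 to 2.17, edgeR adjusted p = 0.226), and the coding gene did not pass the test. Both genes of the pair had higher CPM in the siZBTB7A tables. The exons of the pair overlap, and the wrong-strand estimate was made for the antisense RNAs only. How many of the few LRRC75A reads were misplaced reads of LRRC75A-AS1 was not tested. The pooled wrong-strand share was 0.429%.

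THUMPD3-AS1 (ENSG00000206573, chromosome 3) was lower in siZBTB7A. It had 281 and 288 reads in siNTC and 193 and 235 in siZBTB7A, with no overlap between the groups (fold 0.796, 0.701 to 0.904; edgeR log2 fold -0.33, adjusted p = 0.0171). The call was lost without siNTC R1 (adjusted p = 0.0861), without siNTC R2 (0.0805) and without siZBTB7A R1 (0.359, log2 fold -0.22), and held without siZBTB7A R2 (0.0110). THUMPD3, a tRNA methyltransferase gene, had 299 and 329 reads against 257 and 261, a fold of 0.873 (0.776 to 0.982, edgeR adjusted p = 0.185). The antisense RNA begins 964 bases from SETD5, a chromatin regulator gene on the other strand, looked up after these values were seen. SETD5 had 741 and 741 reads against 619 and 638, a fold of 0.898 (0.832 to 0.968, edgeR adjusted p = 0.0750). All 3 genes of this locus had lower CPM in both siZBTB7A tables, and the antisense RNA was the one that passed. With unstranded counts THUMPD3 passed too (log2 fold -0.28, edgeR adjusted p = 0.0410), beside THUMPD3-AS1 (log2 fold -0.39, edgeR adjusted p = 0.00362).

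LGALS8-AS1 (ENSG00000223776, chromosome 1) had the lowest fold of the 88. Its reads were 48 and 40 in siNTC and 23 and 24 in siZBTB7A, so the groups were apart, and the fold was 0.565 (0.388 to 0.814; edgeR log2 fold -0.82, adjusted p = 0.0365). The call was lost without siNTC R1 (adjusted p = 0.298), siZBTB7A R1 (0.173) or siZBTB7A R2 (0.175), and with unstranded counts (0.186). Without any filter on low counts the adjusted p was 0.0596. LGALS8, which encodes galectin-8, a sugar-binding protein, had 605 and 612 reads against 533 and 570, a fold of 0.959 (0.883 to 1.04, edgeR adjusted p = 0.659). Reads on the coding strand over the exons of LGALS8-AS1 numbered 101 in siNTC and 77 in siZBTB7A, and wrong-strand reads could make up 2.21% of its reads at the 95th percentile. The ratio of LGALS8-AS1 to LGALS8 reads was 0.0793 and 0.0654 in siNTC and 0.0432 and 0.0421 in siZBTB7A, and the fold of the ratio was 0.589 (0.410 to 0.848).

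**Figure D4:**
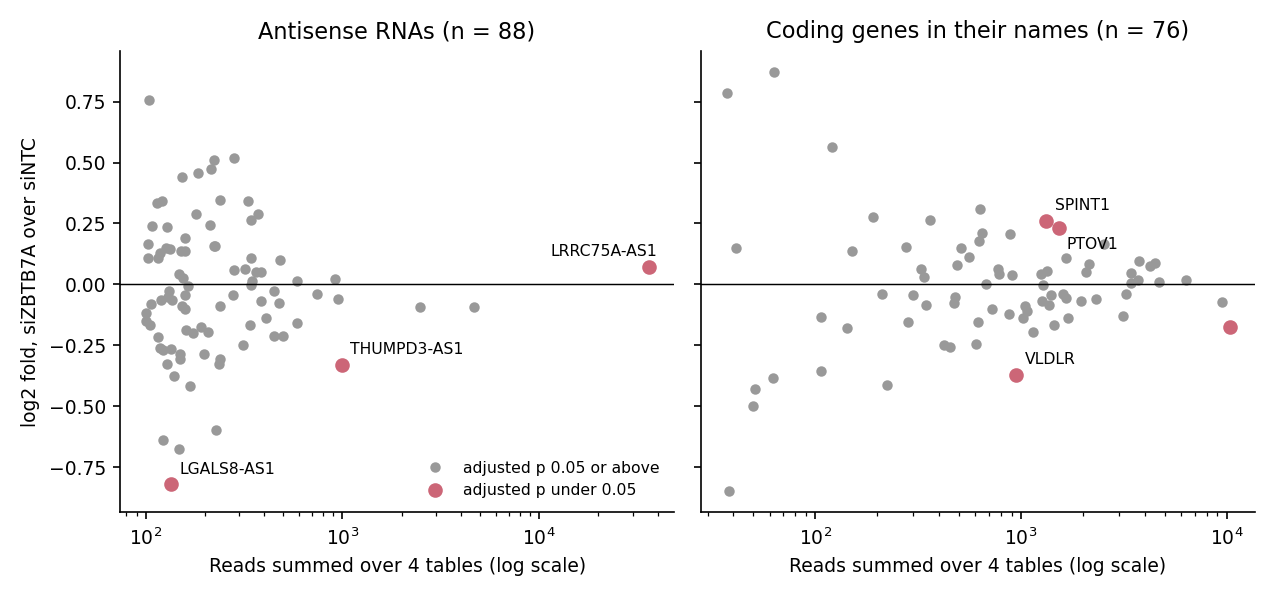
log2 fold of siZBTB7A over siNTC (vertical) against reads summed over the 4 tables (horizontal, log scale) for the 88 antisense RNAs and the 76 coding partners tested; red points had an edgeR adjusted p under 0.05. LRRC75A-AS1 is called at a log2 fold of 0.07 with 36008 reads and LGALS8-AS1 at -0.82 with 135, and VLDLR, SPINT1 and PTOV1 are among the 4 calls of coding genes.

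NOP14-AS1 and PAX8-AS1 came close to the threshold. NOP14-AS1 had 55 and 64 reads in siNTC and 78 and 83 in siZBTB7A (fold 1.43, 1.12 to 1.83; edgeR adjusted p = 0.0590). PAX8-AS1 had 86 and 55 against 40 and 48, with the siNTC tables wide apart (fold 0.661, 0.50 to 0.868; edgeR adjusted p = 0.0590). In both the tables of the groups did not overlap, and neither was called. PAX8-AS1 passed without siNTC R2 (edgeR adjusted p = 0.00410), with the replicate number as a block (0.0472) and in a binomial test on summed reads, exact (0.0461). PAX8, a transcription factor gene, had 31 reads in all and was not tested.

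None of the 36 head to head antisense RNAs was called by edgeR. Of the 36, 3 had an unadjusted p under 0.05 (8.33%), where the share over all genes tested was 17.9%. Over the genes with at least 100 and under 1000 reads that share was 14.2%, and 2.36% were called. These genes are the nearer background in depth. The 36 had a median of 158.5 reads, against 538 for all genes tested. Whether the 36 differ from either background was not tested. The median log2 fold of the 36 was 0.03, with 18 folds above 1 and 18 below. Under limma-voom and the exact binomial test none of them was called either, and DESeq2 gave an adjusted p for none of the 36. The 51 that overlap otherwise held all 3 calls (5.88%) and had a median of -0.07, with 20 above and 31 below. No test of the difference between these classes was made. Other genes of the GENCODE 29 antisense class that are not members had 4 calls among 270 tested, all lower (1.48%), with a median of 63 reads. LINC genes had 4 among 70 (5.71%), other long noncoding genes had 3 higher and 17 lower among 403 (4.96%), and protein-coding genes had 276 higher and 303 lower among 11632 (4.98%).

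Of 49 antisense RNAs listed for earlier work on their function or their link to cancer, 17 were members, and edgeR called none of the 17. An unadjusted p under 0.05 was found for 3 of them (17.6%), near the 17.9% of all genes tested. Limma-voom and the exact binomial test called none of the 17, and DESeq2 gave an adjusted p for 1 of them, FGD5-AS1, which it did not call. Their median log2 fold was -0.002, with 8 folds above 1 and 9 below. GABPB1-AS1, at 35.3 and 30.6 CPM in siNTC and 31.3 and 32.8 in siZBTB7A, had groups that overlapped. So did TMPO-AS1, at 7.92 and 9.66 against 6.56 and 8.99. MCM3AP-AS1 lay opposite the mRNA export gene MCM3AP and had 83 and 92 reads against 71 and 68 (fold 0.841, 0.668 to 1.06; edgeR adjusted p = 0.441). LOXL1-AS1, opposite a lysyl oxidase gene, had 34 and 33 reads against 41 and 45 (fold 1.36, 0.976 to 1.90; edgeR adjusted p = 0.306).

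Among the coding genes in the names, 76 were tested and 4 were called (5.26%, background 4.97%), 2 higher and 2 lower, with a median log2 fold of -0.02. None of the 4 was the partner of a called antisense RNA, though with unstranded counts THUMPD3 and THUMPD3-AS1 were both called. VLDLR, the very low density lipoprotein receptor gene, had 280 and 269 reads against 200 and 201 and was lower, with no overlap (fold 0.773, 0.678 to 0.881; edgeR adjusted p = 0.00562). VLDLR-AS1 had 39 and 34 against 26 and 29, with a fold of 0.797 and an interval, 0.552 to 1.15, that reaches past 1. The call of VLDLR was lost without siNTC R1 (edgeR adjusted p = 0.111) or siZBTB7A R2 (0.0852), and with the GC and length correction (0.0678).

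SPINT1, which encodes an inhibitor of membrane serine proteases, had 304 and 319 reads in siNTC and 356 and 350 in siZBTB7A. It was higher with no overlap (fold 1.2, 1.08 to 1.34; edgeR adjusted p = 0.0303). Head to head with it, at 369 bases between the 5′ ends, SPINT1-AS1 had 44 and 49 reads against 54 and 68 (fold 1.39, 1.05 to 1.84; edgeR adjusted p = 0.164). PTOV1, first described as overexpressed in prostate tumours, had 371 and 351 reads against 380 and 421 (fold 1.17, 1.06 to 1.30; edgeR adjusted p = 0.0456) and was higher in CPM in both tables. PTOV1-AS1 had 26 and 25 against 31 and 26 (fold 1.18, 0.796 to 1.76). SPINT1 did not pass when any 1 of the 4 tables was left out (edgeR adjusted p 0.0760 to 0.240), nor did it with the GC and length correction (0.155). PTOV1 did not pass without siNTC R2 (edgeR adjusted p = 0.388), siZBTB7A R1 (0.0629) or siZBTB7A R2 (0.378), nor with the GC and length correction (0.518) or with no filter on low counts (0.0616).

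Whether an antisense RNA shifted against its coding gene was described by the fold of their read ratio, siZBTB7A over siNTC, in the 70 pairs with at least 100 reads for each gene. The median fold of the ratio was 1.02. The counting interval left out 1 in 6 of the 70 (8.57%), with 2 ratios higher and 4 lower. Of these, the 2 higher and 3 of the lower are described. For the folds of single genes the interval left out 1 in 17.1% of all genes tested. No share was computed for ratios of other gene pairs, so whether 6 is more than usual was not tested. There is 1 library per group, so no p-value is given, and the pairs named here were picked for their ratio.

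RNF139-AS1 had the highest ratio fold, 1.77 (1.18 to 2.67). It had 17 and 23 reads in siNTC and 38 and 26 in siZBTB7A, while RNF139, a ubiquitin ligase gene of the endoplasmic reticulum, had 336 and 330 against 304 and 297. The ratio of NOP14-AS1 to NOP14, a gene of ribosome biogenesis, was 0.172 and 0.189 in siNTC and 0.252 and 0.266 in siZBTB7A, a fold of 1.44 (1.11 to 1.86). Both antisense RNAs were higher in both siZBTB7A tables, beside coding genes with folds of 0.955 and 0.997. The intervals of the next 3, SSTR5-AS1 (1.40, 0.884 to 2.21), LOXL1-AS1 (1.40, 0.920 to 2.12) and PXN-AS1 (1.26, 0.926 to 1.72), included 1. PXN-AS1, named after the paxillin gene, begins 56 bases from RPLP0, a ribosomal protein gene on the other strand, a neighbour looked up after the values were seen. PXN-AS1 had 46 and 49 reads against 64 and 64 (fold 1.43, 1.08 to 1.88; edgeR adjusted p = 0.112), and RPLP0 had 9588 and 10149 against 9978 and 10251, a fold of 1.08 (edgeR adjusted p = 6.20e-12). Folds are also given for 4 other antisense RNAs and the coding genes that start next to them, again picked after the values were seen. They were 0.798 for PITPNA-AS1 and 0.983 for INPP5K, 0.841 for MCM3AP-AS1 and 1.02 for LSS, 0.896 for PSMA3-AS1 and 1.08 for ARID4A, and 0.937 for FGD5-AS1 and 1.01 for NR2C2, and none of these 8 genes was called by edgeR.

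The fold of the ratio was 0.671 (0.461 to 0.977) for ZNF710-AS1 and 0.711 (0.543 to 0.931) for PITPNA-AS1. PITPNA, a phosphatidylinositol transfer protein gene, had 598 and 634 reads against 649 and 657 (fold 1.12, 1.04 to 1.21; edgeR adjusted p = 0.0652), and its antisense RNA had 73 and 61 against 50 and 51. The intervals of these pairs, and that of LGALS8-AS1 given above, lay below 1. The interval of LRRC75A-AS1 to LRRC75A (0.710, 0.494 to 1.02) included 1, and wrong-strand reads in LRRC75A were not estimated.

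**Figure D5:**
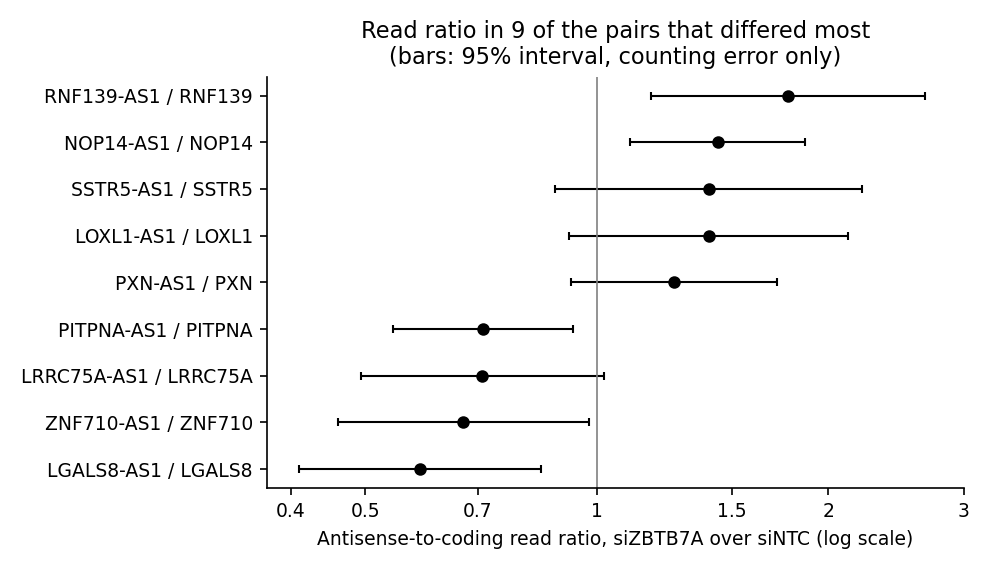
Fold of the antisense-to-coding read ratio, siZBTB7A over siNTC (horizontal, log scale), for the 5 pairs with the highest values and 4 of the 5 with the lowest among 70 pairs with at least 100 reads for each gene. Points are folds from summed tables and bars are 95% intervals for counting error; 5 of the 9 bars leave out 1, from RNF139-AS1 at 1.77 to LGALS8-AS1 at 0.589.

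Over all members, the summed reads were 33050 in siNTC and 31688 in siZBTB7A, a fold of 1.01 (0.999 to 1.03) once scaled. Without LRRC75A-AS1 they were 14990 and 13740, a fold of 0.970 (0.948 to 0.993). The counting interval left out 1 for the sum of the other 87 and not for that of all 88. LRRC75A-AS1 was set aside as the member with most reads. No background was computed for sums of this size between 2 libraries, so whether the lower sum is a trait of the members was not tested.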

How the data were processed

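The authors deposited, for each of 4 RNA-seq samples, whole-number read counts per gene, with no normalization, in an unstranded column and one for each strand. The layout is that of STAR, and the submitters' processing notes name STAR 2.4.2a with hg19 and GRCh37. Which annotation release was used is not stated in the labels. In this layout reads over 2 genes of 1 strand or mapping to several places are left out of the counts. The column with 24.9 to 25.5 times the reads of the other was used. Rows that name no gene (50.8% to 51.2% of reads) were left out. Identifiers were matched without version to GENCODE 29 (GRCh38; 55698 of 60308 matched), which gave names, lengths and positions relative to other genes.

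Genes were tested with edgeR 4.0.16 in R 4.3.3 (robust quasi-likelihood fit, TMM, filterByExpr, group as the only term, Benjamini-Hochberg over 12848 genes, threshold 0.05). The procedure was also run on simulated counts with sampling noise only. Such counts cannot show false calls that come from differences between libraries. Folds are ratios of summed reads over TMM-adjusted totals, and their 95% intervals are exact (Clopper-Pearson); ratio folds have Woolf intervals. All cover counting error only. Alternatives were DESeq2 1.42.0 and its size factors, limma-voom (limma 3.58.1), no filter, a mean of 1 CPM, unstranded counts, an exact binomial test, a GC and length spline offset (99.5% of tested genes had values), a replicate block and leaving out each table. Summaries were made in Python 3.11.15 (pandas 2.3.3, scipy 1.17.1, numpy 2.4.6). Promoter windows came from RefSeq, matched by symbol or by a synonym of a noncoding gene.

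Genes named were ZBTB7A, every antisense RNA or coding partner past the test with its pair, the 10 antisense RNAs with most reads, the 5 highest and 5 lowest level ratios, 6 often-studied antisense RNAs, the 5 largest ratio shifts each way, and the 2 on each side of the threshold, except for 2 pairs that are not reported here. Others near the threshold of the test were picked after values were seen. So were CD27-AS1 and the genes that start next to an antisense RNA (SETD5, RPLP0, NR2C2, INPP5K, LSS, ARID4A, TAPBPL, MFSD10). The members and lists were chosen with earlier results of these data known.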

Additional observations from a re-analysis of the deposited data

How the results depend on the processing

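The members called numbered 3. They numbered 0 by DESeq2, which gave an adjusted p for only 2 of the 88 (86 had none) and called 85 genes in all, and 1 to 3 when a table was left out (a fit in which the lone table of a group is assumed to vary like the other group). The coding partners called numbered 4, against 1 by DESeq2, 1 with the GC and length correction, 7 (3 higher, 4 lower) with unstranded counts and 1 to 3 without a table. The median log2 fold of the members was -0.04, and from -0.047 to -0.020 without a table. The log2 fold of ZBTB7A was -0.43, and from -0.57 to -0.26 without a table. With the replicate number as a block, 4 members (PAX8-AS1 added) and 4 coding partners were called. Tables with the same number did not deviate together (r = -0.013 over 4911 genes), so the number does not pair them. By unstranded counts 85 symbols reached 100 reads, 79 of them members, and on the other strand 133 did, 25 of them members. Of the named genes not called, several changed the sign of a small log2 fold. With unstranded counts it was -0.015 for EPB41L4A-AS1, 0.041 for NUTM2A-AS1, -0.071 for RPARP-AS1 and 0.084 for SSTR5. With the GC and length correction it was 0.082 for GABPB1-AS1, 0.0028 for OIP5-AS1 and -0.0080 for RPARP-AS1, and with no filter it was 0.0011 for NOP14. Without a table it ran from -0.45 to 0.58 for EPB41L4A, -0.057 to 0.099 for EPB41L4A-AS1, -0.14 to 0.062 for GABPB1-AS1, -0.23 to 0.13 for LOXL1, -0.025 to 0.015 for NOP14, -0.29 to 0.27 for NUTM2A-AS1 and -0.11 to 0.030 for PAXBP1. It ran from -0.094 to 0.13 for RPARP-AS1, -0.15 to 0.34 for SGMS1-AS1, -0.31 to 0.027 for SSTR5, -0.41 to 0.058 for ST8SIA6-AS1, -0.063 to 0.41 for TMEM147-AS1, -0.42 to 0.030 for TMPO-AS1 and -0.17 to 0.064 for TP73-AS1. The cause was not tested. With a median of 182.5 reads per member, changes of the size seen in LRRC75A-AS1 were not detectable in most.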
